A study of Mus musculus with 5 samples.

Results

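The genes described here are 9 genes through which the autonomic nerves of the heart set cyclic AMP and calcium in its muscle cells: the adrenergic receptors Adrb1, Adra1a and Adra1b, the muscarinic receptor Chrm2, the adenylyl cyclases Adcy5 and Adcy6, the receptor kinase Grk5, and the phosphodiesterases Pde3a and Pde4d. They were taken by symbol, as a pathway, in a choice made with earlier results of these data known, and all 9 were found among the 49671 genes of the count table. All 9 were also among the 14880 genes that had at least 10 counts in at least 2 pools and so were tested. RNA was sequenced from pooled whole hearts of mice at postnatal day 2, in 3 Charme WT pools and 2 Charme KO pools of C57BL6/J background. Charme is a locus of a long noncoding RNA of muscle, and in Charme KO animals a PolyA signal inserted into the locus interrupts its transcription. The labels name no other allele and no treatment for either genotype. Littermate hearts were pooled by genotype, 9 per Charme WT pool and 3 per Charme KO pool, so that genotype and the number of hearts in a pool cannot be told apart. The labels do not say that the pools came from separate litters, and p-values then measure only the spread between these pools.

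Noradrenaline released by sympathetic nerves acts on the beta1 receptor of heart muscle cells, which works through the stimulatory G protein Gs to switch on adenylyl cyclase, the enzyme that makes cyclic AMP. Acetylcholine from the vagus nerve acts on the M2 muscarinic receptor, whose inhibitory G protein Gi holds the cyclase back, while alpha1 receptors work through Gq and phospholipase C. Cyclic AMP switches on protein kinase A, which phosphorylates calcium channels and the calcium-handling proteins of the sarcoplasmic reticulum, phosphodiesterases break cyclic AMP down, and G protein-coupled receptor kinases mark active receptors for silencing.

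The sequences just before the start sites of 3 of the receptors are shown here as a description. Of these receptors, Adrb1 and Adra1b were lower in both Charme KO pools, and Chrm2, which opposes Adrb1, was not. Whether the sequences bear on these levels was not tested. Each run is the 250 bases before a RefSeq start site in GRCm38.p6, written 5′ to 3′ in the direction of the gene, with capitals where one of 6 searched motifs was found on either strand. Adrb1 lies on the plus strand, and its window is chr19:56721867-56722116. Adra1b lies on the minus strand and has 2 annotated windows, of which chr11:43836490-43836739 is shown. Chrm2 lies on the plus strand, with its window at chr6:36387834-36388083.
Adrb1: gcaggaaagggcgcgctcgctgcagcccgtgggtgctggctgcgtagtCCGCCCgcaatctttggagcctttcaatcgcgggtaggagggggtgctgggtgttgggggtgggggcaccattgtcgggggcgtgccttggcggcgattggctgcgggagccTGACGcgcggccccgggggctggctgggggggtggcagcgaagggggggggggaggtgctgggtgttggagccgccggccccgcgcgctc
Adra1b: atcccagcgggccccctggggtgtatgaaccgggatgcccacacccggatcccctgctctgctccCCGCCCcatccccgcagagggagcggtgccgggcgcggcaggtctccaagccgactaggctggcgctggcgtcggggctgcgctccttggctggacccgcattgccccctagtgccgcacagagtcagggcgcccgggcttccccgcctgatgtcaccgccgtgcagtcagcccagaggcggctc
Chrm2: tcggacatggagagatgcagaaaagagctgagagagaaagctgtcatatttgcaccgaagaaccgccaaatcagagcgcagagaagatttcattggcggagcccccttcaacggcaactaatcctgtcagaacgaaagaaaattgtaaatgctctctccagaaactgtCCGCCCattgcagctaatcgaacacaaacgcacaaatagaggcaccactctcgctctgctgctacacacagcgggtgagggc

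The Adrb1 window was 74.0% G and C and held the core of the cyclic AMP response element, TGACG, at position -90, counted back from the start site. It also held the GC box, GGGCGG, read on the other strand at position -202. The Adra1b window shown, 72.8% G and C, held a GC box at -185, and the Chrm2 window, 50% G and C, held one at -82. The Adra1b window not shown, chr11:43901238-43901487, was 41.6% G and C, below the Chrm2 window. It is the one next to the annotated 5′ end of the gene, and the window shown lies inside the gene. TGACG was present in 17.8% of the 32851 windows of this length in the RefSeq table and GGGCGG in 32.7%, both strands counted. No match to the GATA motif AGATAA, the T-box motif AGGTGTG, the MEF2 motif (CTA and TAG with NNNN between) or the TATA box TATAAA was found in these 3 windows. These motifs were present in 9.99%, 5.1%, 3.2% and 12.4% of all windows. Windows were found for 6 of the 9 genes. Of the others, Adcy5 had 4 GC boxes, Pde4d had an AGATAA at -67, and neither Grk5 nor the second Adra1b window had a match. A match is a description of letters and not of binding.

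The pools held between 16721055 and 21646378 assigned counts. Charme, the targeted gene, was counted 810, 183 and 276 times in Charme WT and 57 and 79 times in Charme KO hearts, with no overlap between genotypes (log2 fold change -2.49, SE 0.549, adjusted p = 0.0763, edgeR quasi-likelihood test). Both Charme KO pools stood apart from the others in their own way. In Charme KO pool 1, mitochondrially encoded genes took 21.1% of the counts, against 9.68% to 11.1% in the other 4 pools. In Charme KO pool 2, 5 salivary gland markers summed to 24620 CPM (counts scaled to the size of the library), against 323.5 in Charme KO pool 1 and at most 0.202 in Charme WT pools, and 5 brown adipose markers summed to 1003 CPM, against 28.3 to 67.2 in the other pools. The 7 cardiomyocyte markers summed to 32850 to 40620 CPM and overlapped between genotypes.

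Levels are given here in FPKM, read counts scaled to exon length and library size, so that genes of different length can be compared. In Charme WT hearts the 2 cyclases were the most abundant of the 9 with Adra1b beside them, and Adra1a was close to nothing. Adcy6 came first with a mean of 35.4 ± 3.49 FPKM (SD, n = 3), followed by Adcy5, Adra1b, Adrb1, Chrm2, Pde3a, Grk5, Pde4d and Adra1a. The neighbours Adcy5 and Adra1b overlapped between pools, as did Chrm2 and Pde3a, and all other neighbours in the order were apart in every pool. In Charme KO hearts Adcy6 and Adcy5 still led. There Adrb1 stood below Chrm2 and overlapped with Pde3a, and Adra1b overlapped with Chrm2.

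**Figure D1:**
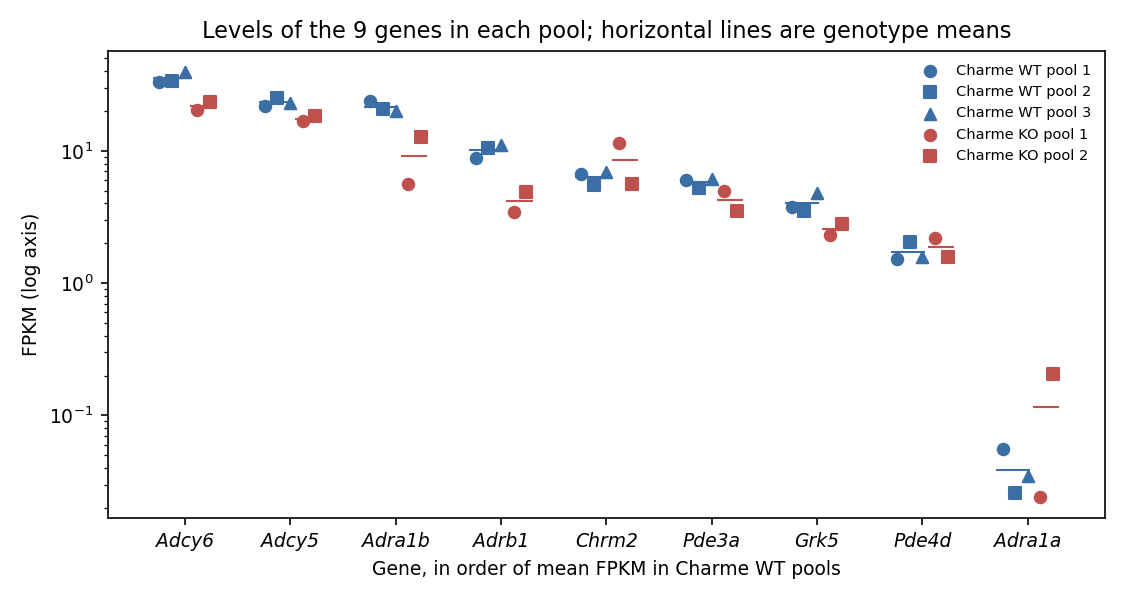
FPKM of the 9 genes in each of the 5 pools, on a log axis, with genes in the order of their Charme WT mean, Charme WT pools in blue, Charme KO pools in red, and genotype means as horizontal lines. For Adrb1, Adra1b, Adcy5, Adcy6, Grk5 and Pde3a both red points lie below all blue points. For Chrm2, Pde4d and Adra1a the genotypes overlap.

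The comparison of Charme KO with Charme WT hearts asked whether the loss of Charme transcription went with other levels of these genes. Adrb1 fell, at 4.18 ± 1.0 FPKM (SD, n = 2) in Charme KO against 10.1 ± 1.10 FPKM (SD, n = 3) in Charme WT hearts, and it was the only one of the 9 to be called. A call needed an adjusted p below 0.1 in edgeR's quasi-likelihood test over all tested genes and a mean of at least 1 FPKM in a genotype, which 8 of the 9 genes reached. Of all tested genes 0.524% were called lower and 1.53% called higher. No gene of the 9 was called higher, also not in edgeR's likelihood ratio test or DESeq2. By the quasi-likelihood test, 6 genes of the set were lower at an unadjusted p below 0.05 and 1, Adra1a, was higher, against 8.01% and 10.6% of all tested genes. Another 5 genes had both Charme KO pools below every Charme WT pool without a call, 6 of 9 with Adrb1, against 18.2% of all tested genes. None of the 9 had both Charme KO pools above, against 17.8% of all tested genes. Over the 9 genes the median log2 fold change was -0.453, and over all tested genes it was 0.0235. In bulk tissue, fewer cells of a type and less RNA per cell cannot be told apart.

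Adrb1 encodes the beta1 receptor, the main adrenergic receptor of heart muscle (ENSMUSG00000035283, chr19:56722199-56733113, plus strand, GRCm38). The reads assigned to it were 620, 625 and 737 in Charme WT hearts and 166 and 369 in Charme KO hearts. Per length this was 8.90, 10.5 and 11.0 FPKM against 3.48 and 4.89 FPKM. Every Charme KO value lay below every Charme WT value, at 34.3% of the Charme WT mean in pool 1 and 48.3% in pool 2. The log2 fold change was -1.27 (SE 0.229, adjusted p = 0.0450, edgeR quasi-likelihood test). This is a level 2.41 times lower. With Charme KO pool 1 left out it was -1.05 (adjusted p = 0.0191), and with Charme KO pool 2 left out it was -1.55 (adjusted p = 0.00234, same test). Each of these fits sets a single Charme KO pool against the 3 Charme WT pools, so that the spread comes from the Charme WT pools alone and the p-values say nothing of how Charme KO pools vary. This holds for every value given here without a Charme KO pool. The call was lost when Charme WT pool 1 (adjusted p = 0.155) or Charme WT pool 3 (adjusted p = 0.289) was left out, with log2 fold changes of -1.35 and -1.21 in edgeR's quasi-likelihood test.

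Adra1b encodes the alpha1B receptor, which works through Gq (ENSMUSG00000050541, chr11:43774606-43901210, minus strand). Its counts were 1646, 1245 and 1345 in Charme WT and 269 and 963 in Charme KO pools, or 23.6, 20.8 and 20.1 FPKM against 5.63 and 12.8 FPKM. Both Charme KO pools were below all Charme WT pools, but they were far from each other, at 26.2% and 59.3% of the Charme WT mean. The log2 fold change was -1.22 with an SE of 0.303, close to that of Adrb1, and the adjusted p of 0.105 from edgeR's quasi-likelihood test just missed the threshold. The size rested on which Charme KO pool was used. It was -0.75 without pool 1 (adjusted p = 0.0495) and -1.94 without pool 2 (adjusted p = 0.000395), both by edgeR's quasi-likelihood test. The gene was called lower in edgeR's likelihood ratio test (adjusted p = 0.00972) and in DESeq2 (adjusted p = 0.00365).

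Adra1a encodes the alpha1A receptor, the other alpha1 subtype of the set (ENSMUSG00000045875, chr14:66635251-66771168, plus strand). Only 10, 4 and 6 reads were assigned to it in Charme WT hearts and 3 and 40 in Charme KO hearts. Its level was at most 0.0556 FPKM in 4 pools and 0.205 FPKM in Charme KO pool 2. One pool stood apart and the genotypes overlapped, since Charme KO pool 1 was the lowest of all. The log2 fold change of 1.68 had an SE of 0.746 and an adjusted p of 0.267 in edgeR's quasi-likelihood test, and without Charme KO pool 2 the gene had too few counts to be tested. Without Charme KO pool 1 it was 2.36 (adjusted p = 0.0366, same test), at a level below 1 FPKM and so not called. Charme KO pool 2 is also the pool with the salivary gland and brown adipose markers given above. Their part in this value was not tested.

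Chrm2 encodes the M2 muscarinic receptor, through which the vagus nerve slows the heart (ENSMUSG00000045613, chr6:36388084-36528414, plus strand). Assigned reads numbered 838, 593 and 826 in Charme WT and 984 and 761 in Charme KO hearts. The levels were 6.72, 5.55 and 6.90 FPKM against 11.5 and 5.64 FPKM. Charme KO pool 1 was the highest of the 5, at 180% of the Charme WT mean, and Charme KO pool 2 lay within the Charme WT range, so the genotypes overlapped. The log2 fold change was 0.42 (SE 0.276, adjusted p = 0.430, edgeR quasi-likelihood test), turned to -0.18 without Charme KO pool 1 (adjusted p = 0.743), and was 0.84 without Charme KO pool 2 (adjusted p = 0.0104). When corrected for the exon length and GC content of the genes, the Chrm2 log2 fold change went to 0.12 (adjusted p = 0.797, edgeR quasi-likelihood test). Charme KO pool 1 is the pool with the high share of mitochondrially encoded genes. The part of that share in the Chrm2 value was not tested.

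Adcy6, a cyclase of heart muscle that Gi and calcium inhibit, had the highest level of the 9 genes in every pool (ENSMUSG00000022994, chr15:98589973-98610076, minus strand). It had 33.2, 33.6 and 39.5 FPKM in Charme WT and 20.3 and 23.5 FPKM in Charme KO pools, from counts of 1942 to 5291. Both Charme KO pools were below, at 57.2% and 66.4% of the Charme WT mean, and the log2 fold change was -0.69 (SE 0.180, adjusted p = 0.117, edgeR quasi-likelihood test). It passed the threshold in edgeR's likelihood ratio test (adjusted p = 0.0446) and in DESeq2 (adjusted p = 0.0175). Adcy5, the other main cyclase of heart muscle (ENSMUSG00000022840, chr16:35154877-35305738, plus strand), had 21.8, 25.2 and 23.0 FPKM in Charme WT and 16.8 and 18.3 FPKM in Charme KO pools. Here too both Charme KO pools were below, by a smaller step, with a log2 fold change of -0.41 (SE 0.169, adjusted p = 0.244, same quasi-likelihood test). When fold changes were corrected for the exon length and GC content of the genes, the Adcy5 value went to 0.01 (adjusted p = 0.979) and the Adcy6 value to -0.41 (adjusted p = 0.223). For Adcy5 the direction therefore depended on that choice.

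Grk5 encodes a kinase that phosphorylates active adrenergic receptors (ENSMUSG00000003228, chr19:60889749-61095968, plus strand). Its levels were 3.76, 3.52 and 4.81 FPKM in Charme WT and 2.32 and 2.80 FPKM in Charme KO pools, from 231 to 671 counts. Both Charme KO pools lay below, with a log2 fold change of -0.65 (SE 0.223, adjusted p = 0.188, edgeR quasi-likelihood test). DESeq2 put its adjusted p just below 0.1, at the edge of a call. Leaving out Charme KO pool 1 gave a log2 fold change of -0.52, and leaving out pool 2 gave -0.81.

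Pde3a encodes a phosphodiesterase that cyclic GMP inhibits and that breaks down cyclic AMP in heart muscle and platelets (ENSMUSG00000041741, chr6:141249269-141507448, plus strand). It had 6.06, 5.23 and 6.08 FPKM in Charme WT and 4.93 and 3.54 FPKM in Charme KO pools. Both Charme KO pools lay below, here with pool 2 the lower one. The log2 fold change was -0.45 (SE 0.2, adjusted p = 0.263, edgeR quasi-likelihood test), and it went to -0.71 (adjusted p = 0.0617) when Charme KO pool 1 was dropped and to -0.24 (adjusted p = 0.350) when pool 2 was. Pde4d, a cyclic AMP-specific phosphodiesterase anchored near the receptors (ENSMUSG00000021699, chr13:108449948-109953461, plus strand), had 1.52, 2.03 and 1.58 FPKM in Charme WT and 2.21 and 1.57 FPKM in Charme KO pools. Its genotypes overlapped, and the log2 fold change was 0.14 (SE 0.236, adjusted p = 0.770, same quasi-likelihood test). Without Charme KO pool 1 it was -0.12. None of the 9 genes shares exon bases on its own strand with another annotated gene.

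**Figure D2:**
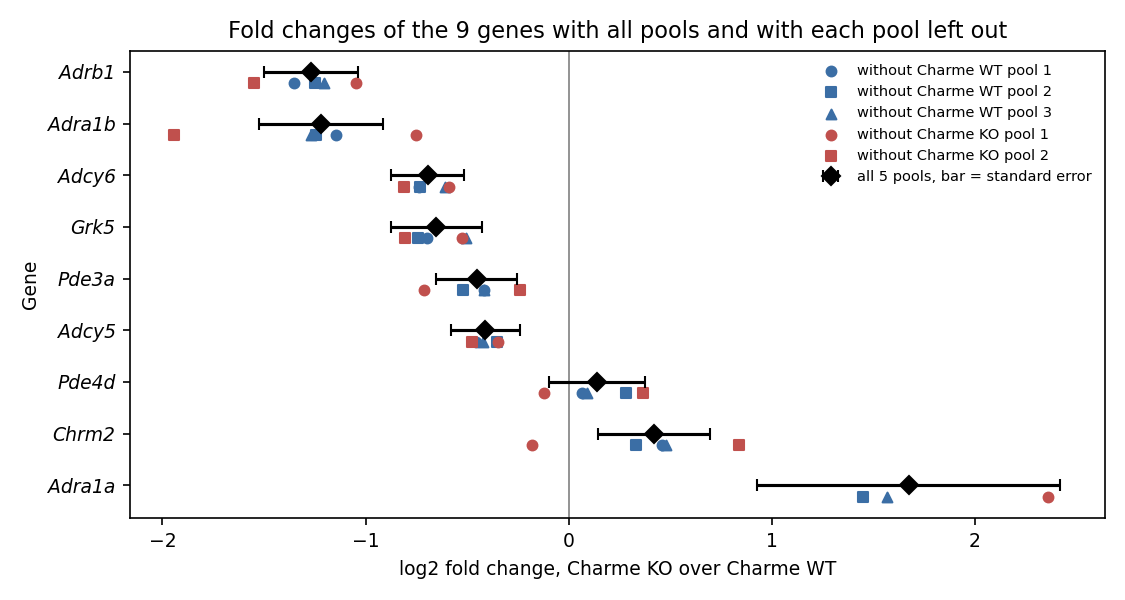
log2 fold change of each of the 9 genes, Charme KO over Charme WT, with all 5 pools (black diamond, bar of 1 standard error) and after leaving out single pools (coloured points). Adrb1 and Adra1b lie at -1.27 and -1.22 with all pools, the Adra1b point without Charme KO pool 2 lies at -1.94, and the Chrm2 and Pde4d points cross 0 without Charme KO pool 1. Adra1a has no point without Charme WT pool 1 or Charme KO pool 2, where it had too few counts to be tested.

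The choice of pool changed how many of the genes were called. Without Charme KO pool 1, Adrb1, Adra1b and Pde3a were called lower, 3 of 9, against 1.27% of all tested genes. Without Charme KO pool 2, Adrb1, Adra1b, Adcy5, Adcy6 and Grk5 were called lower and Chrm2 was called higher, against 15.6% of all tested genes called lower and 16.1% called higher. The 5 calls, out of 8 genes tested in that fit, stand against a background far above the 0.524% of all pools. Both fits have a single Charme KO pool and take their spread from the Charme WT pools. Without Charme WT pool 1 only 0.00685% of all tested genes were called lower, and without Charme WT pool 3 0.0% were, and none of the 9 was among them. Among other tests on all pools, edgeR's likelihood ratio test called Adrb1, Adra1b and Adcy6 lower (3 of 9, against 2.35% of all tested genes), and DESeq2 called these and Grk5 (4 of 9, against 3.55%). With the correction for exon length and GC content Adrb1, Adra1b and Pde3a were called (3 of 9, against 0.827%).

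A ratio of 2 genes within a pool does not depend on how the pools are scaled to each other. It can still carry trends with exon length and GC content, where the genes of a pair differ. With 3 pools against 2, the exact permutation test cannot give a p below 0.1. The ratio of Adrb1 to Chrm2, the receptors that raise and lower cyclic AMP, was 1.32, 1.89 and 1.6 in Charme WT pools and 0.302 and 0.868 in Charme KO pools. Adrb1 thus had the higher FPKM of the pair in all 3 Charme WT pools and the lower in both Charme KO pools. This order depends on the exon lengths used, 3382 bases for Adrb1 and 6053 for Chrm2. In raw counts Adrb1 was below Chrm2 also in Charme WT pool 1 (620 against 838) and pool 3 (737 against 826). The difference in mean log2 ratio was -1.63 (Charme WT 0.67 ± 0.255, SD, n = 3, Charme KO -0.97 ± 1.08, SD, n = 2, exact permutation p = 0.1, two-sided, adjusted p = 0.2 over 4 ratios). Leaving out Charme KO pool 1 gave -0.87, and leaving out pool 2 gave -2.39. With the correction for exon length and GC content, the log2 fold change of Adrb1 went from -1.27 to -1.06. That of Chrm2 went from 0.42 to 0.12.

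The ratio of Adra1a to Adra1b, the alpha1 subtypes, was 0.00124 to 0.00235 in Charme WT pools and 0.00432 and 0.0161 in Charme KO pools. Adra1b was the far more abundant subtype throughout, and the difference of 2.28 in mean log2 ratio rested on Adra1a counts between 3 and 40 (exact permutation p = 0.1, adjusted p = 0.2). For the cyclases, Adcy5 to Adcy6 was 0.655, 0.748 and 0.582 in Charme WT and 0.829 and 0.776 in Charme KO pools, a log2 difference of 0.28 (exact permutation p = 0.2, adjusted p = 0.2). The phosphodiesterase ratio, Pde3a to Pde4d, was 3.99, 2.57 and 3.85 in Charme WT and 2.23 and 2.26 in Charme KO pools, a log2 difference of -0.60 (exact permutation p = 0.2, adjusted p = 0.2). In none of the 4 ratios did the genotypes overlap. Every pair holds a gene that by itself had both Charme KO pools below all Charme WT pools. Of all tested genes 18.2% had both Charme KO pools below and 17.8% had both above. The share over other pairs of genes was not computed. None of the ratios passed an adjusted threshold that these 5 pools cannot reach.

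**Figure D3:**
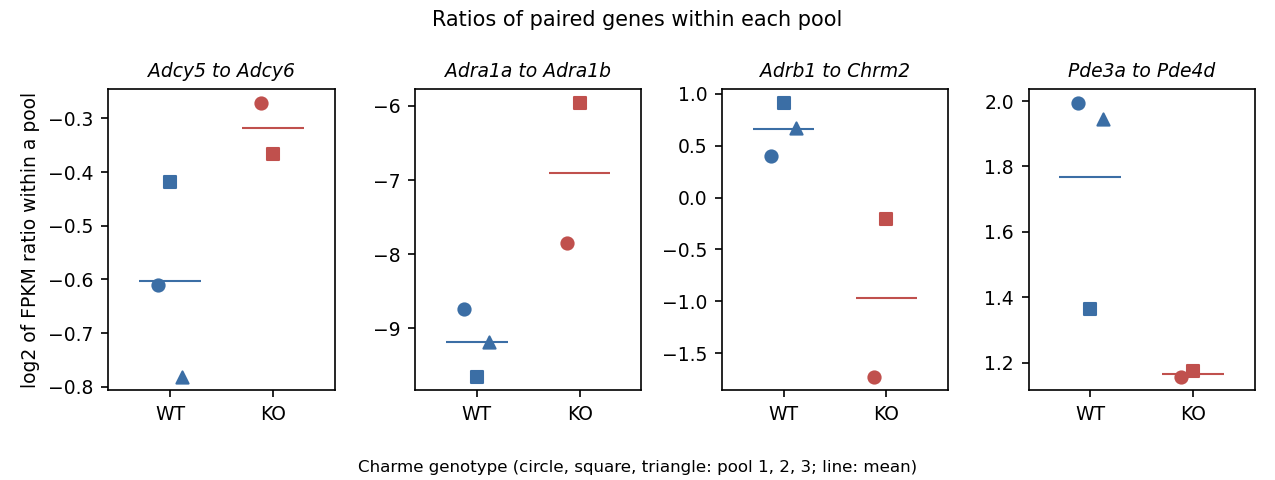
log2 of the FPKM ratio within each pool for 4 pairs of the genes, Charme WT in blue and Charme KO in red, with the genotype mean as a line and a vertical axis of its own in each panel. The Adrb1 to Chrm2 points are above 0 in all 3 Charme WT pools and below 0 in both Charme KO pools.

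The rest of the pathway was followed through 12 lists with 122 genes, of which 104 were tested. In these lists 1 gene was called higher and 1 lower, against 1.53% and 0.524% of all tested genes, and the median log2 fold change was -0.0787. Charme KO pools were both above all Charme WT pools in 13 genes (12.5%, against 17.8% of all tested genes) and below in 21 (20.2%, against 18.2%), shares near those of all genes. At an unadjusted p below 0.05 in edgeR's quasi-likelihood test, 11 were lower and 6 higher, against 8.01% and 10.6% of all tested genes. The counts of each list given further on stand against the same shares. Without Charme KO pool 2, 17 were called lower, among them Gnai2, Grk2, Adcy4, Prkaca and Akap1, and 16 higher, among them Pde1c and Plcb4, where 15.6% and 16.1% of all tested genes were called. Without Charme KO pool 1, genes of the lists moved in both directions. The log2 fold change was then -0.85 for Rgs5, -0.77 for Pde4b and 3.85 for Prkar2b, which is described below. Cacna1c, the pore subunit of the L-type calcium channel of heart muscle and a channel under the control of protein kinase A, was the gene called lower. It had 9.52, 8.47 and 10.5 FPKM in Charme WT and 6.12 and 4.89 FPKM in Charme KO pools, with both Charme KO pools below. Its log2 fold change was -0.79 (SE 0.189, adjusted p = 0.0958, edgeR quasi-likelihood test). It went to -0.96 when Charme KO pool 1 was dropped and to -0.64 when pool 2 was. The call was lost with any of the 3 Charme WT pools left out (adjusted p of 0.160 to 0.460), when exon length and GC content were corrected for (0.125), with upper-quartile normalization (0.103), and in the legacy (0.115) and robust (0.110) forms of the test.

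Prkar2b, a regulatory subunit of protein kinase A that is abundant in adipose tissue and brain, was the gene called higher. Its counts were 132, 82 and 112 in Charme WT and 192 and 1802 in Charme KO hearts, or 1.76, 1.27 and 1.55 FPKM against 3.72 and 22.1 FPKM. Both Charme KO pools were above, and pool 2 was far above pool 1. The log2 fold change of 3.09 (SE 0.557, adjusted p = 0.0450, edgeR quasi-likelihood test) went to 1.27 without Charme KO pool 2 (adjusted p = 0.0103, same test). The call was lost in the robust form of the test (adjusted p = 0.147) and without Charme WT pool 1 (0.167) or Charme WT pool 3 (0.275). Of the 4 tested brown adipose markers 3 moved with it, and Cidea did so only in Charme KO pool 2. Cidea was at 27.96 to 35.42 CPM in Charme WT pools and at 23.57 and 135.5 CPM in Charme KO pools 1 and 2. Ucp1, the uncoupling protein of brown fat, had 77 counts in Charme WT pool 1, 0 in the other Charme WT pools, and 521 and 15830 in the Charme KO pools, and 3 of the 4 tested markers of that list were called higher. The salivary gland markers, at 323.5 and 24620 CPM in Charme KO pools 1 and 2, were also above Charme WT pools in both. The part of either marker list in the Prkar2b value was not tested.

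Among receptors outside the 9 genes, only Adra1d, Adra2b and Chrm3 had enough counts to be tested. Adra1d, the remaining alpha1 subtype, had 2.50 ± 0.636 FPKM in Charme WT (SD, n = 3) and 1.77 ± 0.765 FPKM in Charme KO (SD, n = 2), and its pools overlapped. Adra2b, an alpha2 receptor, was at 0.344 and 0.151 FPKM on average, with both Charme KO pools below (log2 fold change -1.14, SE 0.519, adjusted p = 0.273, edgeR quasi-likelihood test). Chrm3, a muscarinic receptor of glands and smooth muscle, was at 0.197 and 0.217 FPKM, and its log2 fold change of 0.26 went to -1.52 without Charme KO pool 2. Several receptors had most of their counts in that pool. Adra2a had 132 counts there and 2 to 4 in the others, Adrb3, the receptor of brown fat, had 30 against 0 to 4, and Chrm1, a receptor of glands and neurons, had 23 against 0 to 4.

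Of 16 tested G protein subunits 0 were called, and 2 were at an unadjusted p below 0.05 in edgeR's quasi-likelihood test. Gnas, which encodes the Gs subunit that the beta1 receptor uses, had 145 ± 11.5 FPKM in Charme WT and 142 ± 46.3 FPKM in Charme KO hearts (SD, n = 3 and 2). Gnai2, a Gi subunit, had 156 ± 10.5 and 127 ± 32.7 FPKM. Both overlapped between genotypes, with log2 fold changes of -0.02 and -0.29. Of the 11 receptor kinases, arrestins and RGS proteins beside Grk5, 0 were called, 2 were at an unadjusted p below 0.05, and the median log2 fold change was -0.370. Grk2, the other main receptor kinase of the heart, had both Charme KO pools below (18.8 ± 1.44 against 13.9 ± 5.06 FPKM, log2 fold change -0.43, SE 0.230), but pool 2, at 17.5 FPKM, lay just under the lowest Charme WT pool, at 17.6 FPKM. On the log2 scale the change was -0.10 with Charme KO pool 1 left out and -0.87 with pool 2 left out. Rgs5, a brake on G proteins that is abundant in pericytes, had 57.3 ± 9.34 against 40.4 ± 12.1 FPKM and overlapped (log2 fold change -0.51, SE 0.231).

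The other 6 tested cyclases had 0 calls, also at an unadjusted p below 0.05. Adcy4 and Adcy9 were the most abundant of these in Charme WT hearts, at 4.89 ± 0.760 and 1.64 ± 0.311 FPKM, well below Adcy5 and Adcy6. In Charme KO hearts they were at 4.20 ± 1.41 and 1.08 ± 0.24 FPKM, and Adcy9 had both pools below (log2 fold change -0.61, SE 0.293). Of 12 other phosphodiesterases 0 were called and 3 were at an unadjusted p below 0.05 in edgeR's quasi-likelihood test, 4 had both Charme KO pools below and 3 had both above. Pde4b, a cyclic AMP-specific phosphodiesterase, had 5.60 ± 0.132 FPKM in Charme WT and 5.02 ± 2.44 in Charme KO hearts. Pde1c, which calcium and calmodulin activate, had 4.53 ± 0.723 and 5.29 ± 2.02 FPKM, and both overlapped. The counts of Pde2a, Gng10 and Akap2 are uncertain, since 64.3%, 72.0% and 84.4% of their exon bases are shared with an overlapping gene on the same strand.

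Downstream of cyclic AMP, Prkaca, the main catalytic subunit of protein kinase A, had both Charme KO pools below all Charme WT pools, at 113 and 149 FPKM against 175 to 204 FPKM (log2 fold change -0.51, SE 0.197, adjusted p = 0.223, edgeR quasi-likelihood test). Prkar1a, its most abundant regulatory subunit here, had 141 ± 9.51 and 147 ± 28.8 FPKM and overlapped. Of 10 tested A-kinase anchoring proteins, which hold the kinase in place, 0 were called and 1 was at an unadjusted p below 0.05. Akap1, which anchors the kinase at mitochondria, had 39.1 ± 1.19 against 29.9 ± 3.34 FPKM with both pools below (log2 fold change -0.39, SE 0.169), while Akap12 overlapped (19.2 ± 2.03 against 20.5 ± 3.07 FPKM). Of 8 other cyclic AMP effectors 0 were called and 1 was at an unadjusted p below 0.05 in edgeR's quasi-likelihood test. Popdc2, a cyclic AMP-binding membrane protein of muscle, had 251 ± 23.1 against 199 ± 3.76 FPKM with both pools below. Bves, of the same family, overlapped at 42.1 ± 5.99 against 46.5 ± 6.54 FPKM.

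Among 13 cardiac substrates of protein kinase A and regulators of its opposing phosphatase, Cacna1c was the only one called. Pln, the brake on the calcium pump of the sarcoplasmic reticulum, had 1512 ± 199.7 FPKM in Charme WT and 1466 ± 491 FPKM in Charme KO hearts, and Tnni3, cardiac troponin I, had 1328 ± 179 and 1451 ± 428 FPKM. Both overlapped between genotypes. Of 7 effectors of alpha1 and muscarinic receptors outside cyclic AMP, 0 were called and 2 were at an unadjusted p below 0.05 in edgeR's quasi-likelihood test. Kcnj5, a subunit of the potassium channel that the M2 receptor opens, had both Charme KO pools below, at 26.0 ± 4.71 against 17.0 ± 1.64 FPKM (log2 fold change -0.61, SE 0.202, adjusted p = 0.180). Plcb4, a phospholipase C that Gq activates, had both above, at 5.84 ± 1.08 against 8.86 ± 2.27 FPKM (log2 fold change 0.60, SE 0.224, adjusted p = 0.211, edgeR quasi-likelihood test). Of 9 tested genes of transmitter synthesis, uptake and breakdown, 0 were called and 1 was at an unadjusted p below 0.05. Ddc, which makes dopamine, overlapped, at 60.4 ± 7.54 against 50.8 ± 13.3 FPKM.

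**Figure D4:**
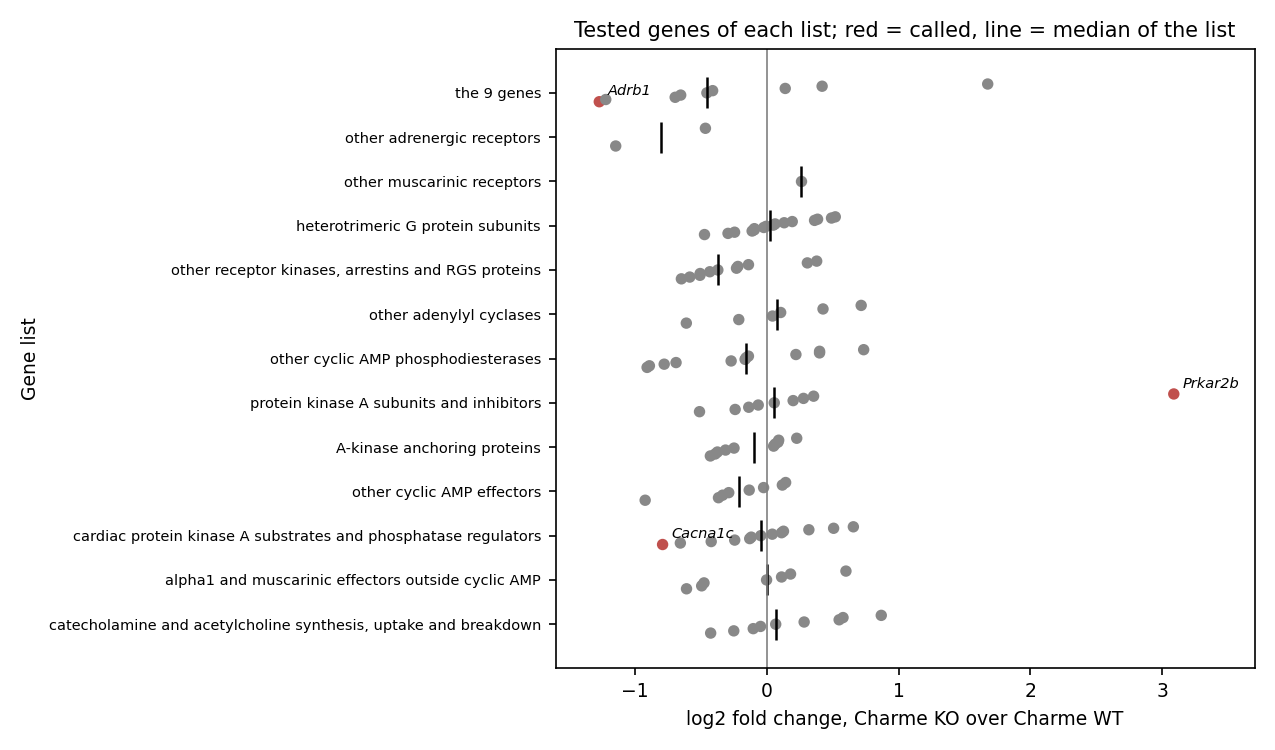
log2 fold change, Charme KO over Charme WT, of every tested gene in the set of 9 and in the 12 pathway lists, with called genes in red and the median of each list as a vertical line. The called genes are Adrb1 at -1.27, Cacna1c at -0.79 and Prkar2b at 3.09. The median of the 9 genes is -0.453, and the medians of the other lists with at least 6 tested genes lie between -0.370 and 0.0754. The other adrenergic receptors, with 2 tested genes, have a lower median of -0.804. For the other muscarinic receptors, with 1 tested gene, it is 0.26.

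Markers of the nerves that act on these receptors were sparse. Of 6 markers of autonomic neurons, Chat was at 0 in all pools and Slc18a3 at 0 in all Charme WT pools, and only 2 had enough counts to be tested, neither of them called. Dbh, which makes noradrenaline, was at 2.88 to 4.03 CPM in Charme WT and at 2.90 and 2.15 CPM in Charme KO pools, and the genotypes overlapped. None of the 7 cardiomyocyte, 6 endothelial and 6 fibroblast markers was called in edgeR's quasi-likelihood test. Of 6 erythroid markers, 5 had both Charme KO pools above, against 17.8% of all tested genes, and Hbb-bt and Hba-a1 were called higher. The list summed to 748.6 to 1123 CPM in Charme WT pools and to 2078 and 1404 CPM in Charme KO pools. Mrc1 of the macrophage, S100b of the Schwann cell and Myh8 of the skeletal muscle markers were also called higher. Of all tested genes 1.53% were called higher. The 6 smooth muscle and pericyte markers summed to 471.2 to 511.5 CPM in Charme WT pools and to 368.6 and 348.3 CPM in Charme KO pools. In 4 of them, Pdgfrb, Cspg4, Kcnj8 and Abcc9, both Charme KO pools were below, against 18.2% of all tested genes, while Cnn1 was called higher. The cardiomyocyte markers went both ways. Myh6, the alpha myosin heavy chain, was at 14060 to 17240 CPM in Charme WT pools and at 7341 and 12510 CPM in Charme KO pools, both below, as was Actn2. Myl7, the atrial myosin light chain, was at 185.5 to 360.5 CPM in Charme WT pools and at 429.9 and 644.7 CPM in Charme KO pools, both above, and Ttn, Myl2, Tnnt2 and Tnni3 were highest in Charme KO pool 1 and overlapped. The part of these cell type markers in the Adrb1 value was not tested.

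**Figure D5:**
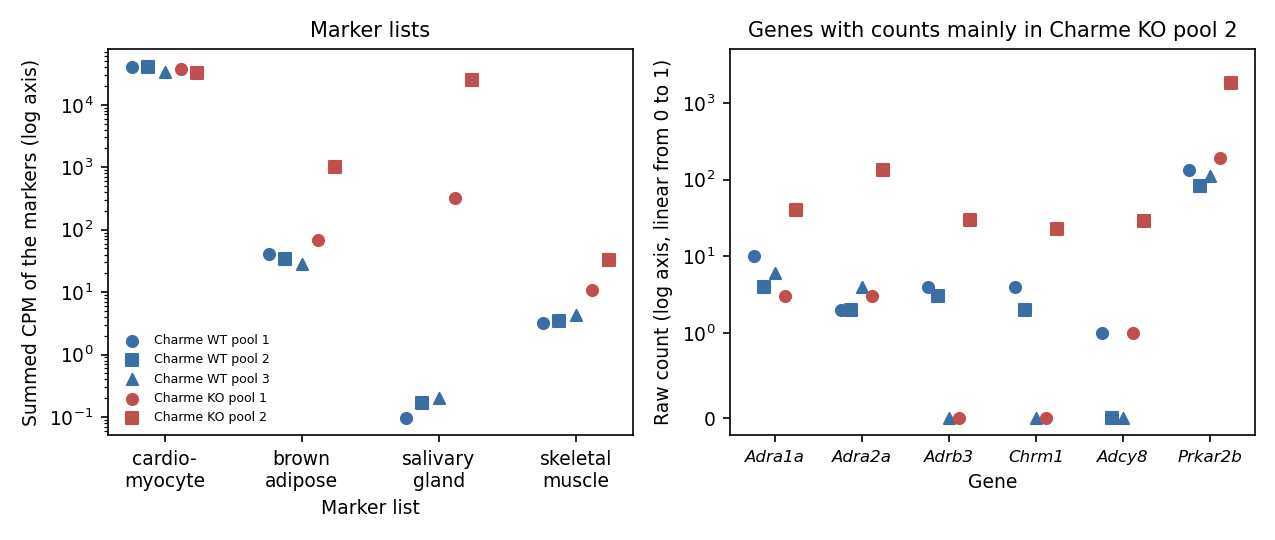
Left, summed CPM of 4 marker lists in each pool on a log axis, Charme WT in blue and Charme KO in red. Right, raw counts of 6 genes of the pathway whose counts lie mainly in Charme KO pool 2. Cardiomyocyte markers lie between 32850 and 40620 CPM in all pools, salivary gland markers reach 24620 CPM and brown adipose markers 1003 CPM in Charme KO pool 2, and the same pool has 40 counts of Adra1a and 1802 of Prkar2b.

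For the genes of the set with the lowest and the highest fold change, the 3 protein-coding genes with the most similar profile were sought, by the Euclidean distance between log2 CPM values over the 5 pools after each gene was centred on its mean. Nearest to Adrb1 lay Ky, which encodes a protein of the muscle Z-disc region, at a distance of 0.186, where the median over all protein-coding genes was 1.56. Ky had 3.68, 4.92 and 5.07 FPKM in Charme WT and 1.48 and 1.98 FPKM in Charme KO pools and was itself called lower (log2 fold change -1.39, SE 0.248, adjusted p = 0.0447, edgeR quasi-likelihood test). Scn4a, a sodium channel, and Cd300ld, an immune receptor, followed at 0.219 and 0.238, both at levels below 0.5 FPKM. As these genes were picked for nearness to Adrb1, their short distances and similar fold changes follow from the choice. Nearest to Adra1a lay Mcpt4, a mast cell protease, at 0.203, Cbr2, a carbonyl reductase, at 0.317, and Acp5, an acid phosphatase, at 0.390, with a median of 2.21 over all genes. In all 3, as in Adra1a, Charme KO pool 2 was the highest pool, with Mcpt4 at 11.1 FPKM against 1.98 to 3.37 FPKM in the others.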

How the data were processed

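RNA-seq was performed on 5 pools of whole hearts from mice at postnatal day 2. Per the labels and methods, the authors made stranded poly(A) libraries (Illumina Stranded mRNA Prep) and sequenced paired ends. They trimmed low-quality bases with Cutadapt, removed adapters with Trimmomatic and aligned to GRCm38 with STAR. They deposited the raw read counts per gene that STAR assigns on the reverse strand, where reads that fit more than 1 gene are dropped. The deposited FPKM table derives from the same counts and was not used. The counts per pool ran from 16721055 to 21646378, and depth limits genes with few counts.

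The 14880 genes of 49671 that reached 10 counts in 2 or more pools were normalised by TMM and tested with edgeR 4.0.16 (R 4.3.3, quasi-likelihood test, Benjamini-Hochberg adjustment over all tested genes). Calls needed an adjusted p below 0.1 and a mean of at least 1 FPKM in a genotype. FPKM was recomputed with the exon length of GENCODE M21, which 49411 genes matched. The standard error is the fold change divided by the root of the F statistic. Ratios within pools were compared by an exact permutation test over 10 assignments. The scripts were tested on simulated data. The 9 genes and the lists were chosen with earlier results of these data known. Named genes were the 9 genes, called pathway genes, the 2 most abundant of each list in Charme WT pools, markers of cell types, and the 3 nearest profiles. Receptors and exon-sharing genes named beyond these were chosen after their values were seen. In all, 19 alternative settings were run, among them DESeq2 1.42.0, splines of length and GC content with 4 degrees of freedom, and each pool left out. Some genes of the lists are not reported here by name. Promoter sequences are from RefSeq (GRCm38.p6).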

Additional observations from a re-analysis of the deposited data

How the results depend on the processing

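Over 19 settings Adrb1 kept its direction. Of the 9 genes, 1 was called lower with all pools, and 3 were called in edgeR's likelihood ratio test (Adrb1, Adra1b and Adcy6), 4 in DESeq2 (these and Grk5) and 3 with the length and GC correction (Adrb1, Adra1b and Pde3a). The shares of all tested genes called lower were then 2.35%, 3.55% and 0.827%. With 1 pool left out the count lower ran from 0 to 5 and the count higher from 0 to 1. The 0 without Charme WT pool 1 and without Charme WT pool 3 came from edgeR's quasi-likelihood test, where 4 and 3 of the genes were lower at an unadjusted p below 0.05 and 1 and 0 genes of the whole table were called lower. Replicate numbers are shared between genotypes, but the labels do not say that they mark a litter, and the correlation over genes of the differences between replicates 1 and 2 was 0.118 over 2 pairs. With the replicate block 2 genes were called lower (Adrb1 and Adra1b, against 0.403% of all tested genes), and with the replicate block and the length and GC correction 0 were (against 0.0269%), with 4 at an unadjusted p below 0.05 in the quasi-likelihood test.

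Of the pathway lists, 1 gene was called lower and 1 higher with all pools. The counts were 4 lower and 3 higher in the likelihood ratio test (2.35% and 3.92% of all tested genes) and 5 and 4 in DESeq2 (3.55% and 4.8%). Lower calls were 0 in the quasi-likelihood test's robust form and in its legacy form, with upper-quartile normalization, at an adjusted p below 0.05 and with the replicate block alone or with length and GC, with 9 to 11 genes lower at an unadjusted p below 0.05. Of all tested genes 0.0269% to 0.403% were called lower in those settings. Higher calls were 0 in the robust form (against 1.14% of all tested genes) and with the replicate block with length and GC (0.202%). They were 2 with length and GC (1.53%). With 1 pool left out they ran from 0 to 17 lower and from 0 to 16 higher, the highest without Charme KO pool 2, where 15.6% and 16.1% of all tested genes were called.

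Fold changes that turned sign were small in most cases. With length and GC they were 0.012 for Adcy5, 0.34 for Gnas, -0.12 for Prkar1a and -0.024 for Bves, and with the replicate block as well 0.28 for Gnas, 0.036 for Adcy4, -0.14 for Prkar1a and -0.095 for Bves. The replicate block alone gave -0.075 for Chrm3, and upper-quartile normalization 0.012 for Gnas. Ranges with 1 pool left out crossed 0 for Chrm2 (-0.18 to 0.84), Pde4d (-0.12 to 0.37), Chrm3 (-1.52 to 0.90), Gnas (-0.41 to 0.28), Adcy4 (-0.62 to 0.093), Pde4b (-0.77 to 0.26), Pde1c (-0.23 to 0.56), Prkar1a (-0.16 to 0.24), Akap12 (-0.069 to 0.23), Bves (-0.0057 to 0.27), Pln (-0.43 to 0.25) and Tnni3 (-0.21 to 0.39). The log2 ratio of Pde3a to Pde4d differed by -0.90 with length and GC, and with 1 pool left out the difference ran from 1.33 to 3.23 for Adra1a to Adra1b and from -2.39 to -0.87 for Adrb1 to Chrm2. The cause of these shifts was not tested. Groups of 3 and 2 pools limit every comparison.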
